A study of Mus musculus with 4 samples.

Results

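The genes described here encode collagens, laminin chains and other proteins of the basement membrane, measured in whole mouse embryos with and without Ddx6. Members were chosen by symbol alone: collagen chains (Col, a number, a, a number), laminin chains (Lama, Lamb or Lamc with a number), and Nid1, Nid2, Hspg2, Agrn and Sparc. Of the 24421 genes in the table, 60 matched, and 50 of these had at least 10 reads in at least 1 library, a minimum that 14393 genes of the whole table passed. The 50 genes comprised 4 type IV collagens, 10 laminin chains, 7 other basement membrane genes, 11 fibrillar collagens, 8 fibril-associated (FACIT) collagens, 4 transmembrane collagens and 6 other collagens. The remaining 10 matched genes were Col4a3, Col4a4, Col6a4, Col6a5, Col6a6, Col8a1, Col10a1, Col20a1, Col28a1 and Lamc3, with between 0 and 7 reads in a library.

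Polyadenylated RNA of whole embryos of the ICR strain was sequenced in 4 strand-specific libraries. Per the study's methods, extraembryonic tissue or yolk sac was used for genotyping. How much of such tissue remained in each library is not stated. Wild-type embryos gave 1 library at each of 2 ages, embryonic day 7.5 (E7.5 WT) and embryonic day 8.5 (E8.5 WT), and Ddx6 -/- embryos of day 8.5 gave 2 libraries, KO1 and KO2. The knockout allele lacks exon 5 of Ddx6, which was floxed and removed through a cross with the broadly expressed CAG-Cre transgene, and parents heterozygous for it were mated. KO1 pooled 1 embryo from before head-fold formation with 1 that had head folds, and KO2 pooled 3 embryos from before head-fold formation. Genotype and developmental delay therefore cannot be told apart against E8.5 WT, and each WT stage had 1 library, so that any p-value below rests on the spread between the KO libraries alone (n = 2). In such bulk libraries, fewer cells of a type and less RNA per cell cannot be told apart.

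Type IV collagen and laminin are the network-forming proteins of basement membranes, the sheets of matrix that underlie epithelia. Each assembles as a heterotrimer, of 3 α chains for type IV collagen and of an α, a β and a γ chain for laminin, and nidogen and perlecan (Hspg2) connect the networks. In the early mouse embryo such sheets lie under the epiblast and visceral endoderm, and parietal endoderm secretes the thick Reichert's membrane. Fibrillar collagens form the fibres of connective tissue and are characteristic of mesenchyme and, for type II collagen, of notochord and cartilage. Transcripts of many collagens are known targets of the miR-29 family of microRNAs, and DDX6 acts in microRNA-mediated silencing.

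Sequences of 2 kinds are shown: promoters of the type IV collagen pairs, whose levels are compared within each pair below, and matches to the miR-29 seed, since the study asked about microRNA silencing. First, the type IV collagen genes stand head to head in pairs, each pair transcribed in opposite directions from neighbouring start sites. In the RefSeq windows of 300 bases (250 before the start site and 50 after it, on GRCm38.p6, each read along its own strand), the start sites of Col4a1 and Col4a2 on chromosome 8 were 21 bp apart and the windows overlapped. Those of Col4a6 and Col4a5 on the X chromosome were 1343 bp apart. Capitals mark the CCAAT box (CCAAT or its reverse complement ATTGG) and the GC box (GGGCGG or CCGCCC). The windows lay at chr8:11312777-11313076 (minus strand) for Col4a1, chr8:11312555-11312854 (plus) for Col4a2, chrX:141474027-141474326 (minus) for Col4a6 and chrX:141475169-141475468 (plus) for Col4a5.
Col4a1: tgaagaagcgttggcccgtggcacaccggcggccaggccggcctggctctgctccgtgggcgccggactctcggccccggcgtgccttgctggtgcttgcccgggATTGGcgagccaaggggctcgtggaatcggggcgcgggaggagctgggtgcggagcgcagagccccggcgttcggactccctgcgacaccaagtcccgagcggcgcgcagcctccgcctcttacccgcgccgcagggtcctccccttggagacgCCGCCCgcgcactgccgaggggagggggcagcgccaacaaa
Col4a2: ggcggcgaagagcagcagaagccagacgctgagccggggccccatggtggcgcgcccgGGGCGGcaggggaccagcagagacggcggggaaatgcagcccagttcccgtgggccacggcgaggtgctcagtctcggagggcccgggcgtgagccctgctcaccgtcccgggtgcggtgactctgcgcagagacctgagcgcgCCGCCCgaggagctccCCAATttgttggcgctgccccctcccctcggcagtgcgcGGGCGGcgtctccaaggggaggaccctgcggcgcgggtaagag
Col4a6: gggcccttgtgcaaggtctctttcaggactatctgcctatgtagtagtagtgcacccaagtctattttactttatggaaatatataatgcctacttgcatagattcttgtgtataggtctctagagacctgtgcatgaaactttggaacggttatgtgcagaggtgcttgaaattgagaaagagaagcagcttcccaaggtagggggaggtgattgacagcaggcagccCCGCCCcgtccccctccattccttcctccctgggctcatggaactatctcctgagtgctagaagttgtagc
Col4a5: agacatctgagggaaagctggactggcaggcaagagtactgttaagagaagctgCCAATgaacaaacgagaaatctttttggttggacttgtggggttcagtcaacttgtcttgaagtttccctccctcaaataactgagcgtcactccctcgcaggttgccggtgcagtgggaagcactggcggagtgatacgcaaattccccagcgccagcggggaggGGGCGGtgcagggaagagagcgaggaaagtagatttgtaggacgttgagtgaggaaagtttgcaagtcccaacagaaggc

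The windows of Col4a1 and Col4a2 were 74.0% and 73.7% G or C, and those of Col4a6 and Col4a5 48.3% and 52.7%, beside a median of 52.7% over all windows. A GC box was found in each of the 4 windows and in 35.7% of all 32851 RefSeq windows. That of Col4a1 lies in the overlap and is the last one of Col4a2 read on the other strand. A CCAAT box was found in those of Col4a1, Col4a2 and Col4a5, and in 37.4% of all windows. A TATA box (TATAAA or TTTATA) was found in none of the 4 windows and in 13.6% of all windows.

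Second, the mature miR-29 sequences (RefSeq) share the seed AGCACCA at bases 2 to 8, in capitals.
mmu-miR-29a-3p: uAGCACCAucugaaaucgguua
mmu-miR-29b-3p: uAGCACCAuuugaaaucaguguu
mmu-miR-29c-3p: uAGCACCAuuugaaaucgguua

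Below are 7 stretches of 23 bases from 3′ UTRs of member genes (GENCODE, GRCm38), each with the match to the seed, TGGTGCT, in capitals. They lie at chr8:11199761-11199783 (minus strand) in Col4a1, chr8:11448344-11448366 (plus) in Col4a2, chrX:141688238-141688260 (plus) in Col4a5, chr11:94952523-94952545 (plus) in Col1a1, chr15:97975681-97975703 (minus) in Col2a1, chr1:45374965-45374987 (minus) in Col5a2 and chr1:153220068-153220090 (minus) in Lamc1. They were chosen among the genes described most fully below.
Col4a1: gccaccgtcacaacaTGGTGCTa
Col4a2: gtgggaaggccacgtTGGTGCTt
Col4a5: cactgctcccaccaaTGGTGCTa
Col1a1: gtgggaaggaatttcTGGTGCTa
Col2a1: gcgtgtcctacacaaTGGTGCTa
Col5a2: cttttcttttaatgaTGGTGCTa
Lamc1: tattatctgacacacTGGTGCTa

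Libraries held between 8198402 and 12562640 counted reads. Ddx6 had 706 reads in KO1 and 929 in KO2, against 2943 in the younger and 5715 in the older WT library. Reads from the remaining exons are still counted. Its log2 difference from E8.5 WT was thus -2.47 in KO1 and -2.61 in KO2, in the direction of the labels. KO2 stood apart in some transcripts of trophoblast. The summed level of 6 markers was between 182 and 424 CPM in the other 3 libraries and 791 CPM in KO2. The excess lay in Prl3d1 (341 CPM in KO2) and Prl2c2 (115 CPM), which had at most 27 reads in any other library. Hand1 made up most of the other sums, at 216 CPM in E7.5 WT, 181 CPM in E8.5 WT and 422 CPM in KO1. It was lower in KO2 (330 CPM) than in KO1, and Ascl2 was highest in E7.5 WT (30.1 CPM, against 4.43 CPM in KO2). The 3 decidua markers summed to 13.5 CPM in E8.5 WT, 17.7 CPM in KO1, 141 CPM in E7.5 WT and 143 CPM in KO2. In the last 2 libraries most of the sum was Prl8a2, at 111 and 118 CPM. Prl3c1 had 135 reads in E7.5 WT and 25 in KO2, and Tdo2 stood at 18.7 and 23.1 CPM. Tpbpa and Prl3b1, of the trophoblast list, were at 0 reads in all 4 libraries, and Prl2c2 had 0 in E8.5 WT.

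The level of a gene within a library is given below in CPM, reads relative to library size after TMM scaling, which corrects for library composition. A level that is compared between genes is given in RPKM, the CPM per kilobase of the gene's annotated exons. A difference between libraries is a log2 difference of CPM with a prior count of 2, and its 95% interval is an exact binomial one that covers counting error only. A gene was called higher or lower when that difference was above 1 or below -1, the cut-off of the study's methods. Such calls carry no p-value.

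The members held between 0.395% of all reads, in E7.5 WT, and 0.547%, in KO1. The 10 members with the most reads in a library were the same in all 4: Col4a1, Col4a2, Sparc, Agrn, Hspg2, Col18a1, Nid2, Lama5, Lamb1 and Lamc1. They took between 79.9% and 87.4% of the members' reads. Per length, Col4a1 and Sparc were the highest members in every library, at 81.1 to 119 RPKM and 74.5 to 109 RPKM. No fibrillar collagen exceeded 18.8 RPKM, as the plot of levels per length shows.

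**Figure D1:**
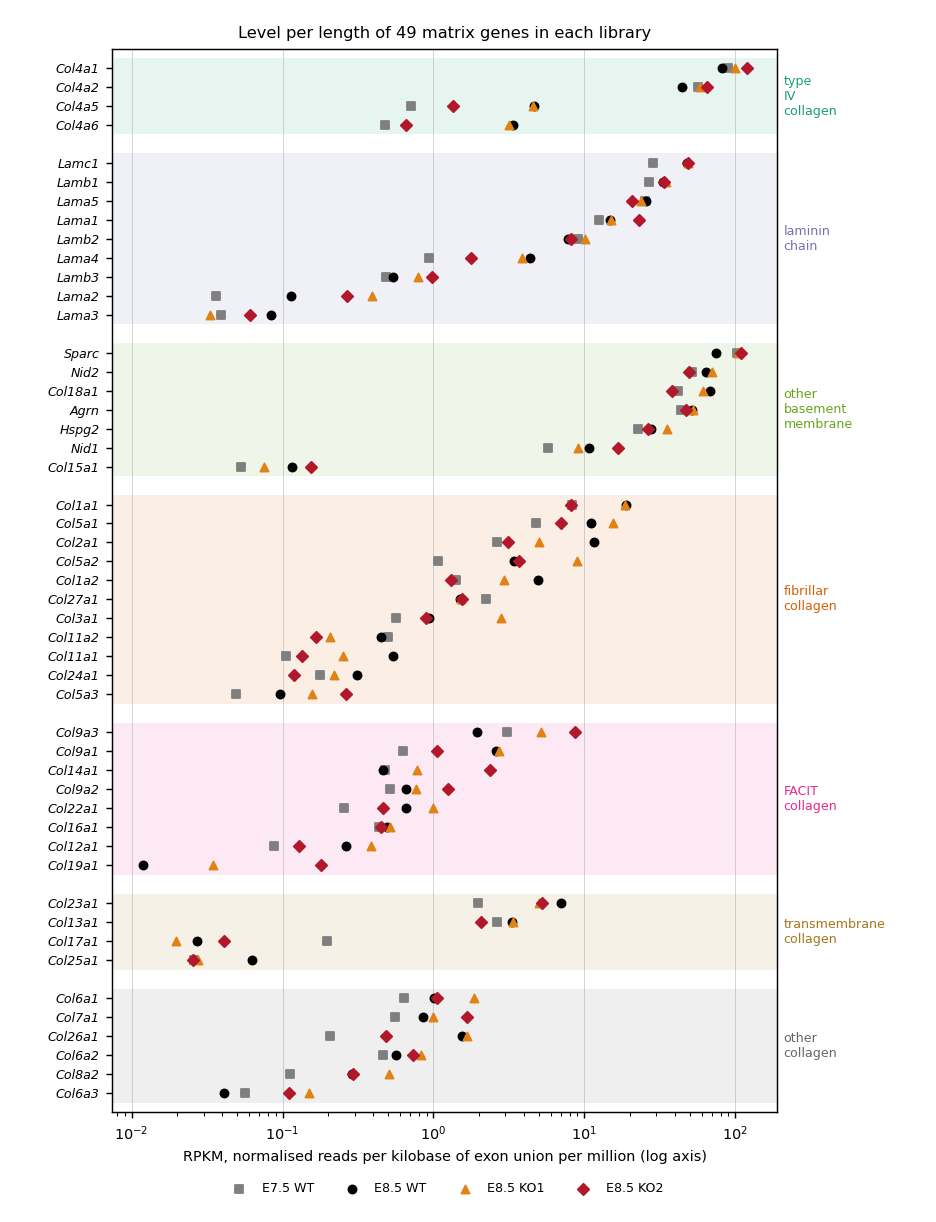
Level per length (RPKM, log axis) of 49 of the genes in each of the 4 libraries, with 1 point per library and genes grouped by role. Col4a1 and Sparc lie highest in every library, and Col19a1 in E7.5 WT, with 0 reads, has no point.

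Against E8.5 WT, 3 of the 50 genes were called higher in both KO libraries (Col9a3, Lama2 and Col6a3), where 3.44% of all genes were. Another 3 were called lower in both (Col2a1, Col11a1 and Col11a2), where 1.79% of all genes were. The members' median difference stood at 0.08 for KO1 and -0.06 for KO2, beside -0.01 and 0.00 over all genes. With the genes at 3 reads or fewer in a library set to a floor of 3 reads there, the members' medians were 0.12 and -0.06. A median near 0 covered members that went both ways. In KO2 alone, 11 members (22%) were called lower than E8.5 WT, where 5.91% of all genes were, and 6 (12%) higher, where 9.41% were. In KO1 alone, 4 members (8%) were called lower, where 3.31% of all genes were, and 5 (10%) higher, where 4.97% were. The fibrillar collagens had a median of -0.01 in KO1 and -1.21 in KO2. Among members with at least 50 reads, the differences of KO2 reached -2.31 (Col4a6) and 2.29 (Col14a1).

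No member passed an adjusted p of 0.05 against E8.5 WT in the quasi-likelihood test of edgeR, and none of all 14393 genes did (0.0%). At an unadjusted p below 0.05 there were 4 members (Col2a1, Col4a2, Col9a3 and Sparc), beside 7.31% of all genes. DESeq2 also called 0 members at an adjusted p of 0.05, and 0.215% of all genes. The lowest adjusted p that DESeq2 gave a member was that of Col2a1, at 0.0762.

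**Figure D2:**
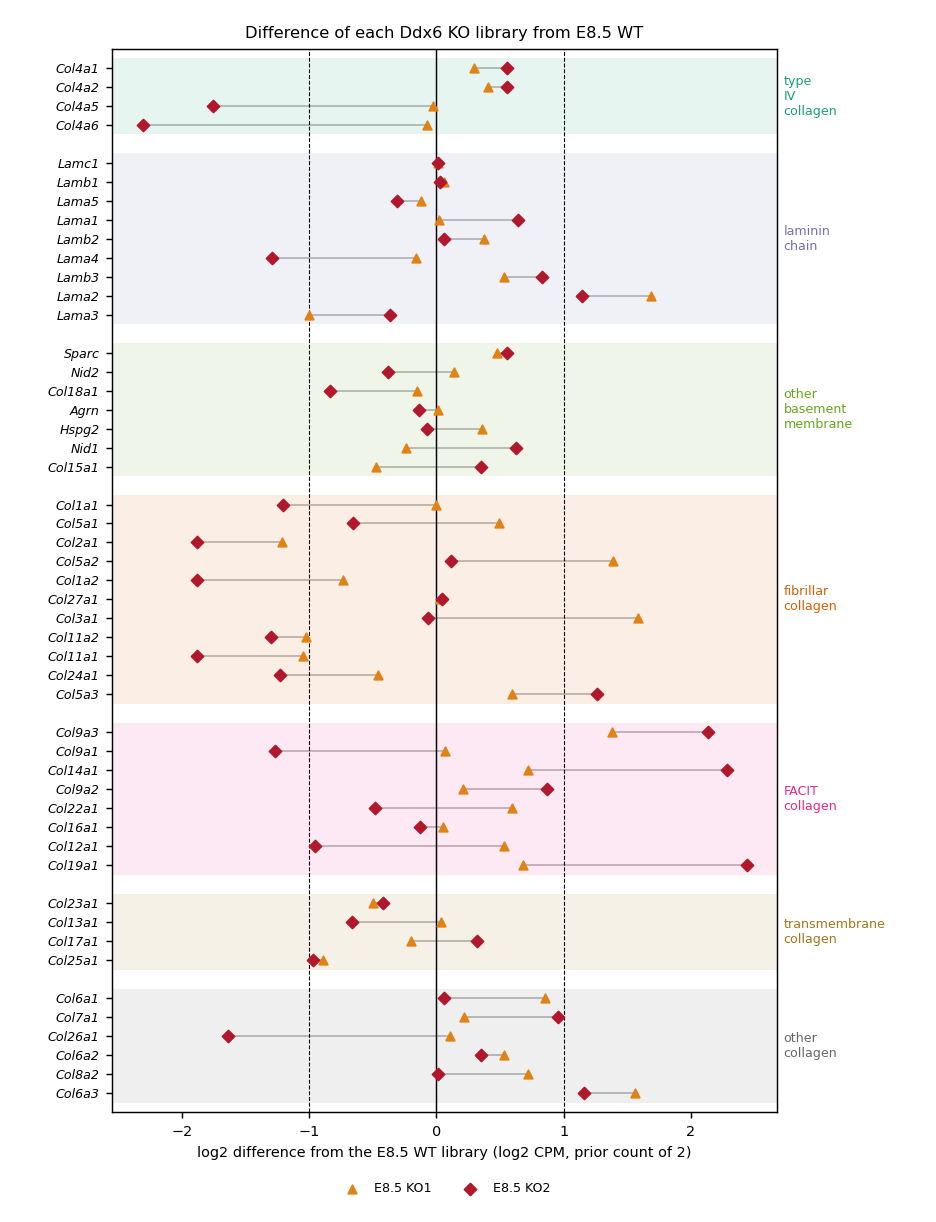
Log2 difference of KO1 (triangles) and KO2 (diamonds) from the E8.5 WT library for 49 of the genes, 1 row per gene, with dashed lines at the call threshold of 1 either way. The rows of Lamc1, Lamb1 and Agrn have both points near 0, while Col4a5 and Col4a6 have KO1 near 0 and KO2 at -1.76 and -2.31.

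Col4a1 and Col4a2 encode the chains of the widespread type IV collagen trimer, with 2 α1 chains and 1 α2 chain. Col4a1 stood at 668 CPM in E7.5 WT, 606 CPM in E8.5 WT, 741 CPM in KO1 and 888 CPM in KO2. Col4a2 stood at 375, 293, 387 and 429 CPM in the same order. Both genes were thus highest in KO2 and lowest in E8.5 WT. The differences from E8.5 WT were 0.29 and 0.55 for Col4a1 (mean 0.42 ± 0.18, SD, n = 2) and 0.40 and 0.55 for Col4a2 (mean 0.48 ± 0.10). In the edgeR test the adjusted p was 0.666 for both genes.

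Within a library, Col4a1 had 1.58 times the reads per length of Col4a2 in E7.5 WT (95% interval 1.52 to 1.64), 1.84 times in E8.5 WT (1.76 to 1.91), 1.70 times in KO1 (1.63 to 1.77) and 1.84 times in KO2 (1.78 to 1.9). The ratio in KO2 lay within the interval of that in E8.5 WT, and the ratios in E7.5 WT and KO1 lay below both of those intervals. The ratio thus lay between 1.58 and 1.84, while the level of each gene differed by up to 1.47-fold between libraries. The part of the shared promoter region in this ratio was not tested.

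Col4a5 and Col4a6, the other head-to-head pair, encode the α5 and α6 chains, which form a trimer in certain epithelia and smooth muscle. Col4a5 had 57 reads (4.79 CPM) in E7.5 WT, 384 (31.2 CPM) in E8.5 WT, 257 (30.6 CPM) in KO1 and 111 (9.11 CPM) in KO2. Col4a6 had 45 reads (3.78 CPM), 329 (26.8 CPM), 213 (25.4 CPM) and 64 (5.25 CPM) in the same order. Both genes were high in E8.5 WT and KO1 and low in E7.5 WT and KO2, with no overlap between these pairs of libraries.

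KO1 differed from E8.5 WT by -0.03 for Col4a5 (95% interval -0.26 to 0.20) and -0.08 for Col4a6 (-0.33 to 0.18). KO2 differed from it by -1.76 (-2.10 to -1.47) and -2.31 (-2.76 to -1.96). The mean over the KO libraries was -0.89 ± 1.22 for Col4a5 and -1.19 ± 1.58 for Col4a6 (SD, n = 2), so the spread between the KO libraries exceeded the mean. Col4a5 had 1.39 times the reads per length of Col4a6 in E8.5 WT (1.19 to 1.61), 1.43 times in KO1 (1.19 to 1.73) and 2.06 times in KO2 (1.5 to 2.84). These intervals overlapped.

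The pair on the X chromosome was far below the pair on chromosome 8. Col4a1 exceeded Col4a5 per length by 125-fold in E7.5 WT (95% interval 96.7 to 166), 17.4-fold in E8.5 WT (15.7 to 19.4), 21.8-fold in KO1 (19.2 to 24.8) and 87.7-fold in KO2 (72.8 to 107). In this ratio, KO2 lay near E7.5 WT and KO1 near E8.5 WT. The third gene pair of the family, Col4a3 and Col4a4, had between 0 and 5 reads in a library.

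Among the laminin chains, Lamc1 and Lamb1 encode the γ1 and β1 chains that are common to most laminins of the early embryo. Lamc1 stood at 235 CPM in E7.5 WT, 397 CPM in E8.5 WT, 401 CPM in KO1 and 401 CPM in KO2. Its difference from E8.5 WT was 0.01 in each KO library, with intervals of -0.05 to 0.08 in KO1 and -0.05 to 0.07 in KO2. Lamb1 stood at 265, 329, 343 and 335 CPM in the same order, with differences of 0.06 and 0.03. For both chains the 3 libraries of day 8.5 lay close together and above E7.5 WT.

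The α chains varied more. Lama1, the α1 chain of laminin-111, which is the main laminin of the peri-implantation embryo and Reichert's membrane, stood at 122 CPM in E7.5 WT, 142 CPM in E8.5 WT, 144 CPM in KO1 and 222 CPM in KO2. KO2 was the highest library, 0.64 above E8.5 WT (95% interval 0.55 to 0.73), and KO1 was 0.02 above it (-0.09 to 0.12). Lama5, the α5 chain of laminin-511, stood at 287, 293, 269 and 236 CPM, lowest in KO2, and neither KO library was past the call threshold for either chain. Lama5 therefore exceeded Lama1 per length by 2.0-fold in E7.5 WT (1.88 to 2.13), 1.75-fold in E8.5 WT (1.65 to 1.85) and 1.59-fold in KO1 (1.48 to 1.70), but stood at 0.90 of Lama1 in KO2 (0.86 to 0.95). The interval of KO2 did not overlap those of the other 3 libraries.

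Lama4, the α4 chain of vascular and mesenchymal laminins, had 134 reads (11.3 CPM) in E7.5 WT, 645 (52.5 CPM) in E8.5 WT, 393 (46.8 CPM) in KO1 and 259 (21.3 CPM) in KO2. As with Col4a5 and Col4a6, KO1 was close to E8.5 WT (-0.16, interval -0.35 to 0.02) and KO2 lay between the stages (-1.30, -1.52 to -1.09). The 5 endothelial markers examined (Pecam1, Cdh5, Kdr, Tie1 and Emcn) summed to 73.4 CPM in E7.5 WT, 290 CPM in E8.5 WT, 250 CPM in KO1 and 229 CPM in KO2, all 5 being detected in every library. They went apart in KO2, where Tie1 differed from E8.5 WT by -3.71 (21 reads against 304) and Cdh5 by 0.81. Their part in the levels of Lama4 was not tested.

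Lama2, the α2 chain of muscle laminin, was called higher in both KO libraries, and it was the only member called higher than both WT stages (0.75% of all genes were). It had few reads, with 54 in KO1 and 53 in KO2, against 7 at E7.5 and 23 at E8.5 in WT. The difference from E8.5 WT was 1.69 in KO1 (95% interval 1.05 to 2.55) and 1.14 in KO2 (0.49 to 1.99). Its edgeR adjusted p was 0.666, and at 0.115 to 0.394 RPKM in the libraries of day 8.5 it remained a minor chain. Of other laminin chains, Lamb2 stood between 47.4 and 61.4 CPM, Lamb3 between 3.19 and 6.48 CPM, and Lama3 had 3 to 11 reads.

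Nidogens bind laminin and type IV collagen. Nid1 stood at 39.7 CPM in E7.5 WT, 74.8 CPM in E8.5 WT, 63.2 CPM in KO1 and 115 CPM in KO2, and was thus highest in KO2. Nid2 stood at 268, 331, 363 and 253 CPM in the same order, lowest in KO2. Nid2 exceeded Nid1 per length by 9.05-fold in E7.5 WT (95% interval 8.21 to 9.99), 5.93-fold in E8.5 WT (5.52 to 6.38), 7.71-fold in KO1 (7.03 to 8.47) and 2.95-fold in KO2 (2.77 to 3.15). As for Lama1 and Lama5, the balance between paralogous chains in KO2 lay outside the range of the other libraries, which the plot of chain ratios shows.

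**Figure D3:**
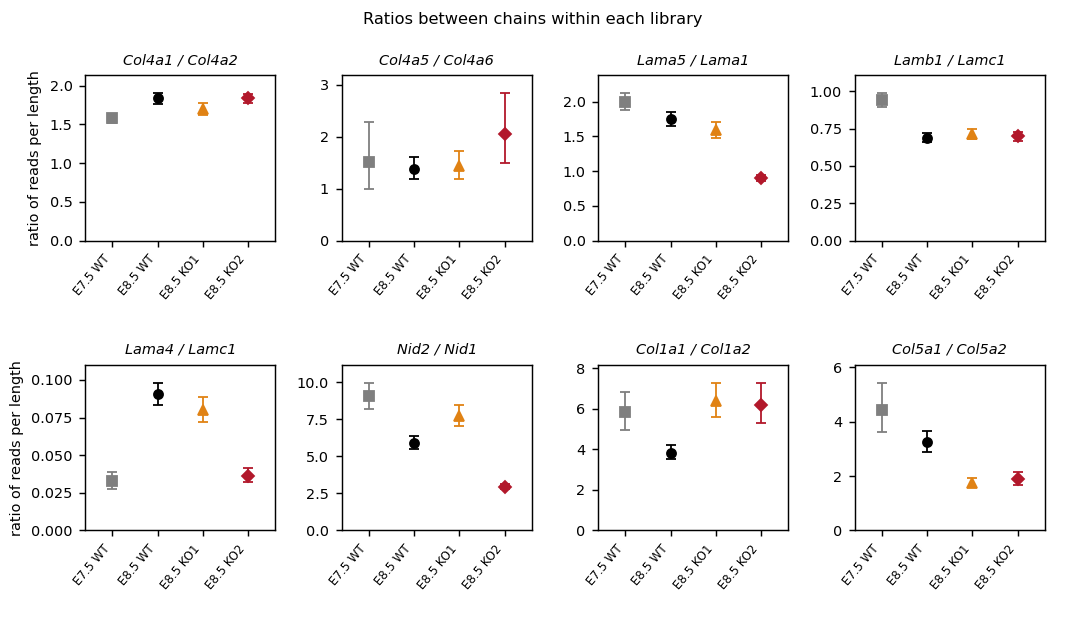
Ratio of the reads per length of 2 genes within each library, for 8 pairs of chains, with exact 95% binomial intervals (counting error only) and axes from 0. In KO2 the ratios of Lama5 to Lama1 (0.90) and of Nid2 to Nid1 (2.95) lie below those of the other 3 libraries, and in both KO libraries that of Col5a1 to Col5a2 lies below both WT stages.

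Perlecan, agrin, SPARC and collagen XVIII completed the abundant members. Hspg2, which encodes the heparan sulphate proteoglycan perlecan, stood at 327 and 396 CPM in the younger and the older WT library and at 507 and 376 CPM in KO1 and KO2. Agrn, another basement membrane proteoglycan, stood at 403, 483, 487 and 439 CPM in the same order. In a KO library neither differed from E8.5 WT by more than 0.36.

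Sparc encodes a matricellular protein that binds type IV collagen and is abundant in parietal endoderm. It stood at 388 CPM in E7.5 WT, 282 CPM in E8.5 WT, 393 CPM in KO1 and 414 CPM in KO2. Both KO libraries were above E8.5 WT, by 0.48 and 0.55 (mean 0.52 ± 0.05, SD, n = 2, edgeR adjusted p = 0.666), and near E7.5 WT, from which they differed by 0.06 on average. Col18a1, whose C-terminal fragment is endostatin, stood at 292, 476, 429 and 266 CPM, with KO2 0.84 below E8.5 WT and close to E7.5 WT. Col15a1 had 4 to 12 reads.

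Because Col4a1, Lama1 and Sparc are products of parietal endoderm, 7 markers of that tissue were examined beside them, all of which were detected in every library. Their summed level was 344 CPM in E7.5 WT, 282 CPM in E8.5 WT, 364 CPM in KO1 and 429 CPM in KO2, with KO2 highest and E8.5 WT lowest. Sparc, Col4a1 and Col4a2 had the same order of libraries, and Lama1, which was lowest in E7.5 WT, did not. In KO2, Thbd had 838 reads, against 20 to 56 in the other libraries, and Srgn had 223, against 16 to 124. Thbd and Srgn are also expressed by trophoblast and blood cells. Without both, a choice made after their values were seen, KO1 had the highest sum. The other 5 markers summed to 332 CPM in E7.5 WT, 276 CPM in E8.5 WT, 358 CPM in KO1 and 342 CPM in KO2. Gata4 alone gave 141, 115.5, 138 and 139 CPM of these sums. In KO2, Sox7 (-0.60) and Plat (-0.24) were below E8.5 WT, and Pth1r (0.89), Gata6 (0.13) and Gata4 (0.26) were above it. Sox7 was lowest in KO2, at 14.7 CPM. The 7 visceral endoderm markers, all detected, summed to 6718, 7056, 4157 and 3956 CPM, lower in both KO libraries than in both WT libraries. Apob and Cubn made up most of each sum. Amn, unlike the other markers of this list, was above E8.5 WT in KO2 (147 CPM against 129 CPM). The part of these tissues, and of the trophoblast and decidua transcripts of KO2, in the levels of the basement membrane genes was not tested.

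Of the 11 fibrillar collagens, 0 were called higher in both KO libraries and 3 were called lower, where 3.44% and 1.79% of all genes were. The group's median difference stood at -0.01 for KO1 and -1.21 for KO2. Col2a1, the single chain of type II collagen, had 288 reads (24.2 CPM) in E7.5 WT, 1317 (107 CPM) in E8.5 WT, 386 (46.0 CPM) in KO1 and 353 (29.0 CPM) in KO2. It was the clearest of the members called lower, with a difference of -1.22 in KO1 (95% interval -1.39 to -1.06) and -1.88 in KO2 (-2.06 to -1.72), and a mean of -1.55 ± 0.47 (SD, n = 2). Both KO libraries lay between the WT stages. Its unadjusted edgeR p was 0.00779 and the adjusted p was 0.666.

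Col11a1 and Col11a2 encode chains of type XI collagen, which co-assembles with type II collagen. Col11a1 had 16 reads at E7.5 and 84 at E8.5 in WT, and 27 and 21 in KO1 and KO2. Its differences from E8.5 WT were -1.05 (95% interval -1.77 to -0.45) and -1.88 (-2.75 to -1.28). Col11a2 had 41, 38, 12 and 14 reads in the same order, with differences of -1.02 (-2.19 to -0.15) and -1.30 (-2.43 to -0.51), and was the only member called lower than both WT stages (0.361% of all genes were). In KO1 both genes stood just past the threshold of -1, and without TMM scaling neither was called lower in both libraries, which left Col2a1 alone. Col2a1 exceeded Col11a1 per length by between 19.7-fold (KO1) and 24.8-fold (E7.5 WT), with overlapping intervals in all 4 libraries.

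Notochord expresses Col2a1. The 4 notochord markers, all detected, summed to 380 CPM in E7.5 WT, 121 CPM in E8.5 WT, 152 CPM in KO1 and 179 CPM in KO2. Most of the sum in E7.5 WT was T (325 CPM), which is also expressed in the primitive streak. Shh went the other way, at 0.84 CPM in E7.5 WT, 16.3 CPM in E8.5 WT, 19.3 CPM in KO1 and 2.30 CPM in KO2. It was lowest in E7.5 WT, as Col2a1 was. In KO1 its level was within counting error of E8.5 WT (difference 0.24, counting interval -0.06 to 0.55), while Col2a1 was below E8.5 WT. Noto stood at 8.66, 4.31, 5.48 and 8.78 CPM in the same order, and Foxa2 at 45.4, 24.2, 28.2 and 45.5 CPM. Both were lowest in E8.5 WT, where Col2a1 was highest. The part of these markers in the levels of Col2a1 was not tested.

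Col1a1 and Col1a2 encode the chains of type I collagen. Col1a1 stood at 54.1 CPM in E7.5 WT, 123 CPM in E8.5 WT, 123 CPM in KO1 and 53.4 CPM in KO2. Col1a2 stood at 17.6, 60.9, 36.6 and 16.3 CPM in the same order. KO2 was at the level of E7.5 WT for both chains, while KO1 was at that of E8.5 WT for Col1a1 (difference -0.01, 95% interval -0.12 to 0.11) and lower for Col1a2 (-0.73, -0.93 to -0.54). Col1a1 exceeded Col1a2 per length by 3.84-fold in E8.5 WT (3.51 to 4.19), and by 5.82-fold to 6.36-fold in the other 3 libraries, whose intervals overlapped each other and not that of E8.5 WT. The size of this excess depended on the length used. With the longest transcript it was 2.77-fold in E7.5 WT, 1.83-fold in E8.5 WT, 3.03-fold in KO1 and 2.95-fold in KO2.

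Col5a1 and Col5a2 encode chains of type V collagen, which nucleates type I fibrils. Col5a1 stood at 40.5 CPM at E7.5 and 94.1 CPM at E8.5 in WT, and at 132 and 59.5 CPM in KO1 and KO2. Col5a2 stood at 10.3, 32.8, 86.0 and 35.5 CPM. KO1 was thus the highest library for both, by 0.49 and 1.39 over E8.5 WT, while KO2 was below E8.5 WT for Col5a1 (-0.66) and close to it for Col5a2 (0.12, 95% interval -0.08 to 0.32). The reads per length of Col5a1 were 4.43 times those of Col5a2 in E7.5 WT (3.63 to 5.44), 3.24 times in E8.5 WT (2.89 to 3.64), 1.74 times in KO1 (1.58 to 1.91) and 1.89 times in KO2 (1.68 to 2.14). Both KO libraries had overlapping intervals that lay below those of both WT libraries.

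Col3a1, the chain of type III collagen, had 66 reads (5.55 CPM), 112 (9.11 CPM), 232 (27.6 CPM) and 106 (8.70 CPM) in the same order. KO1 was 1.58 above E8.5 WT (95% interval 1.27 to 1.94), and KO2 was close to it (-0.07, -0.46 to 0.33). Col3a1 and Col5a2 lie next to each other on chromosome 1, and KO1 stood above E8.5 WT for both. Col27a1 stood at 29.0, 19.5, 19.9 and 20.1 CPM, with the 3 libraries of day 8.5 close together. The scarce Col5a3 and Col24a1 had 4 to 29 reads.

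Among the FACIT collagens, which bind to the surface of fibrils, Col9a3 was the member called higher in both KO libraries with the most reads. It had 141 reads (11.9 CPM) in E7.5 WT, 92 (7.49 CPM) in E8.5 WT, 166 (19.8 CPM) in KO1 and 408 (33.5 CPM) in KO2, so that both KO libraries were above both WT libraries. The difference from E8.5 WT was 1.38 in KO1 (95% interval 1.02 to 1.78) and 2.13 in KO2 (1.83 to 2.50), with a mean of 1.76 ± 0.53 (SD, n = 2), an unadjusted edgeR p of 0.0144 and an adjusted p of 0.666. Against E7.5 WT it was 1.66-fold higher in KO1 and 2.8-fold higher in KO2.

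Of the chains that join Col9a3 in type IX collagen, Col9a1 was ordered differently across the libraries. Col9a1 had 38, 161, 115 and 65 reads (3.19, 13.1, 13.7 and 5.33 CPM), with KO1 at the level of E8.5 WT and KO2 between the stages. Col9a2 had 19, 25, 20 and 47 reads. The 3 genes of 1 trimer were thus lowest in different libraries, Col9a3 in E8.5 WT and Col9a1 and Col9a2 in E7.5 WT.

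Col14a1, a FACIT collagen of tendon and skin, had 40, 40, 46 and 202 reads, which made it 1.57 higher in KO2 than in KO1 (95% interval 1.13 to 2.09). Col19a1 had 0, 1, 2 and 15 reads. Col7a1, of the anchoring fibrils under stratified epithelia, had 68, 108, 86 and 210 reads and was also highest in KO2. Col6a3, of the beaded filaments of type VI collagen, was called higher in both KO libraries on 8, 6, 15 and 16 reads, with an interval in KO2 that reached 0 (0.00 to 3.07), while Col6a1 and Col6a2 were called in neither direction in both.

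Between the WT stages, 16 of the 50 genes were called higher at E8.5 than at E7.5, a share of 32.0% where 12.2% of all genes were, and 1 was called lower, where 7.82% were. The 16 were Col1a1, Col1a2, Col2a1, Col5a1, Col5a2 and Col11a1 of the fibrillar collagens, Col9a1, Col12a1 and Col22a1 of the FACIT collagens, Col4a5, Col4a6, Lama2, Lama4, Col8a2, Col23a1 and Col26a1. None of the 10 most abundant members was among them. The largest differences among members with at least 50 reads were those of Col26a1 (2.78), Col4a6 (2.77), Col4a5 (2.66), Col11a1 (2.20) and Lama4 (2.20). The lowest were those of Col9a3 (-0.65), Col27a1 (-0.57), Sparc (-0.46), Col4a2 (-0.36) and Lamb2 (-0.22).

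The gene called lower at E8.5 was Col17a1, a transmembrane collagen of hemidesmosomes, on 14 reads at E7.5 and 2 at E8.5 in WT, with 1 read in KO1 and 3 in KO2. Its 95% interval was -6.04 to -0.73. The median over the members was 0.66, beside -0.02 over all genes. Of the 11 fibrillar collagens, 6 were thus called higher in the older of the 2 WT libraries, where 12.2% of all genes were. Each of the 10 most abundant members differed by less than 0.76 on the log2 scale.

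Between the KO libraries, 12 members were called lower in KO2 than in KO1, a share of 24% where 4.89% of all genes were. Another 2, Col14a1 and Col19a1, were called higher in KO2, where 5.99% of all genes were. The lowest differences among members with at least 50 reads were those of Col4a6 (-2.23), Col26a1 (-1.74), Col4a5 (-1.73), Col3a1 (-1.65) and Col9a1 (-1.33). The highest were those of Col14a1 (1.57), Nid1 (0.86), Col9a3 (0.75), Col7a1 (0.74) and Lama1 (0.62). The median over the members was -0.30, beside 0.02 over all genes, and -0.36 with the members at 3 reads or fewer set to that floor.

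Of the 12 members lower in KO2, 11 were among the 16 that were higher at E8.5 than at E7.5 in WT. That is 68.8% of the 16, beside 28.5% of all 1759 genes called higher at E8.5. The exception was Col3a1. Of the 16, 15 had a lower level in KO2 than in KO1, the exception being Col23a1, which stood at 11.3 and 40.4 CPM in the WT stages, 28.6 CPM in KO1 and 30.1 CPM in KO2. The level of KO2 lay between the WT stages in 11 of the 16. KO1 was above E8.5 WT in 8 of them. The counts of 15, 11 and 8 were not made over the 1759 genes, so they describe the 16 only. The 16 were chosen for a wide gap between the WT stages, which favours a level between them. The median difference of KO2 from KO1 was -1.15 over the 16 and -0.47 over all 1759 genes.

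The median difference of the 16 genes from E8.5 WT stood at 0.03 for KO1 and -1.24 for KO2. Over all 1759 genes called higher at E8.5 it was -0.15 and -0.61. Col26a1, a collagen of testis and ovary, followed this order, with 20 reads (1.68 CPM) in E7.5 WT, 155 (12.6 CPM) in E8.5 WT, 114 (13.6 CPM) in KO1 and 48 (3.94 CPM) in KO2. Across the 50 members, the difference between WT stages and that between KO libraries, which share no library, had a Pearson correlation of -0.61 (Spearman -0.60), beside -0.55 (-0.46) across all 14393 genes. With at least 50 reads in a library, the values were -0.70 (-0.72) across 37 members and -0.58 (-0.47) across 11942 genes. Genes of 1 library share its depth and tissue make-up, so these values are descriptions only.

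**Figure D4:**
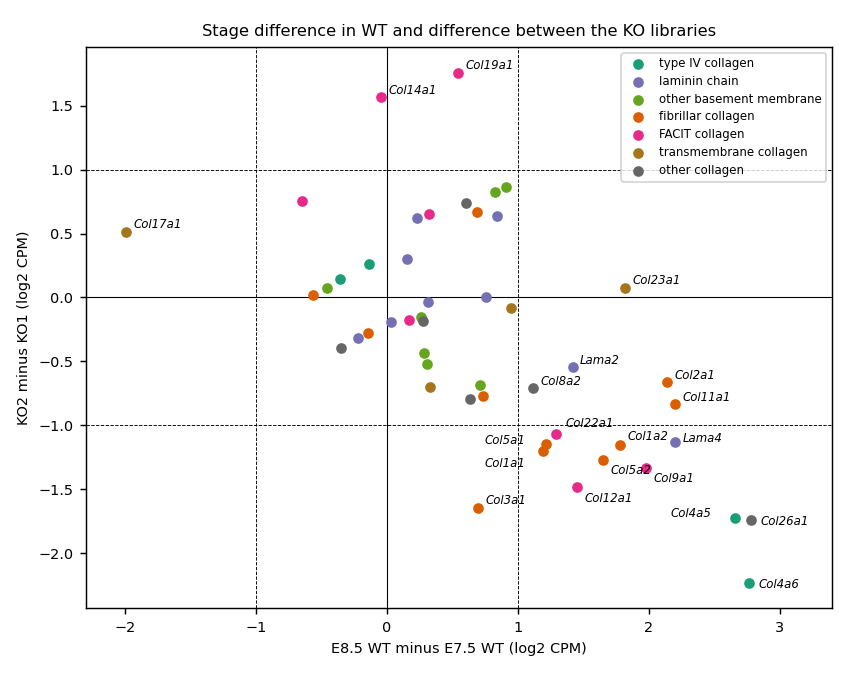
Log2 difference of E8.5 WT from E7.5 WT (horizontal) and of KO2 from KO1 (vertical) for 49 of the genes, coloured by role, with dashed lines at the call threshold and names for genes past it. Points to the right of 1 lie below 0 on the vertical axis, with the exception of Col23a1.

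Markers of paraxial mesoderm, a source of fibrillar collagens, were also lower in KO2 than in KO1. The 7 markers, all detected in every library, summed to 84.5 CPM in E7.5 WT, 290 CPM in E8.5 WT, 285 CPM in KO1 and 35.4 CPM in KO2, and all 7 were called lower in KO2 than in KO1. The sum in KO2 lay below that of both WT stages. Of the 16 matrix genes, which were chosen by their stage difference, 11 lay between the stages in KO2. That count of chosen genes cannot be set against a summed level. Tbx6, unlike the sum, was lower at E8.5 than at E7.5 in WT (-0.73). The part of these markers in the difference of the matrix genes between the KO libraries was not tested. Nor was that of the morphological stage of the pooled embryos, which cannot be told apart from the library.

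Against E7.5 WT, 7 members were called higher in both KO libraries (6.91% of all genes were): Col5a2, Col5a3, Col8a2, Col19a1, Col23a1, Col26a1 and Lama2. Col11a2 and Col17a1 were called lower in both (2.7% of all genes were). In the edgeR test, 0 members and 0.0% of all genes passed an adjusted p of 0.05 against E7.5 WT, and 7 members, beside 24.4% of all genes, had an unadjusted p below 0.05. DESeq2 called 2 members, beside 5.01% of all genes. These were Col5a2 (log2 difference 2.53, DESeq2 adjusted p = 0.000453) and Lamc1 (0.74, DESeq2 adjusted p = 0.00498), each higher in both KO libraries and also in E8.5 WT than in E7.5 WT.

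Matches to the miR-29 seed were frequent among the collagens. A 3′ UTR was annotated for each of the 50 members, and 24 of them (48.0%) held at least 1 match to TGGTGCT, beside 15.7% of 13423 genes with a 3′ UTR. Among the collagens, 22 of 35 held a match (62.9%), and among the laminin chains 1 of 10 did, Lamc1. The remaining gene with a match was Agrn. The median 3′ UTR was shorter in the members, at 920 bases, than over all genes, at 1197 bases. Col5a1 and Col26a1 had 4 matches each, and Col4a5 and Col5a3 had 3.

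The members with a match had a median difference from E8.5 WT of 0.06 in KO1 and -0.13 in KO2. Those without a match had medians of 0.17 and 0.02. Over all 2112 genes with a match the medians were -0.01 and -0.04. The genes whose sites are printed above differed from E8.5 WT in either direction, from Col4a1 and Col4a2, which were higher in both KO libraries, to Col2a1, which was lower in both. A match of 7 bases is a description of the sequence, and levels of mature miR-29 were not analysed here.

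Enzymes and receptors that act on collagen were examined beside the members. Against E8.5 WT, 0 of 22 genes of collagen modification and secretion were called higher in both KO libraries and 0 lower, beside 3.44% and 1.79% of all genes, with medians of 0.31 in KO1 and 0.00 in KO2. Serpinh1, the collagen chaperone HSP47, stood at 485 CPM in E7.5 WT, 640 CPM in E8.5 WT, 948 CPM in KO1 and 650 CPM in KO2, highest in KO1. Loxl1, a collagen and elastin cross-linking enzyme, had 17, 72, 175 and 84 reads across the same libraries. The procollagen N-proteinase Adamts2 had 74, 226, 312 and 145. Loxl1 and Adamts2 were highest in KO1, as were Col5a1, Col5a2 and Col3a1. Other genes of the Lox family differed. Loxl3 was also highest in KO1, on 21, 20, 45 and 29 reads. Loxl2 stood at 121, 172, 114 and 94.4 CPM, below E8.5 WT in both KO libraries. Lox had 38, 9, 1 and 20 reads, lowest in KO1, and Loxl4 had 7 to 16 reads.

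Of 11 matrix receptors that passed the read minimum, of 13 listed, 1 was called higher in both KO libraries and 1 lower, where 3.44% and 1.79% of all genes were. Itga10, a collagen-binding integrin chain, was higher on 27, 14, 22 and 32 reads. Ddr2, a receptor kinase for fibrillar collagen, was lower, with 7 reads in KO1 and 3 in KO2, against 94 at E8.5 and 7 at E7.5 in WT. The 95% interval of its log2 difference from E8.5 WT was -4.55 to -2.10 in KO1 and -7.26 to -3.37 in KO2, which placed both KO libraries near E7.5 WT. Ddr1, a receptor for both type IV and fibrillar collagens, stood at 102, 72.2, 112 and 112 CPM. Of 10 matrix proteases and inhibitors, 1 (Htra1) was called higher in both and 0 lower, and Mmp14, which cleaves fibrillar collagen, stood at 53.1, 84.3, 190 and 133 CPM.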

How the data were processed

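The deposited table holds raw counts, 1 row for each gene and 1 column for each of 4 libraries of whole mouse embryos. Per the study's methods and the submitters' processing notes, reads were trimmed with Cutadapt 2.8, aligned to mm10 with HISAT2 2.1.0 and counted over exons by strand with featureCounts 2.0.0. Counts were scaled by TMM in edgeR 4.0.16 under R 4.3.3, and genes with at least 10 reads in at least 1 library were kept. Log2 differences used a prior count of 2. Groups came from the sample labels. The two-sided quasi-likelihood F-test of edgeR, adjusted by Benjamini-Hochberg over all 14393 genes, compared the KO libraries with each WT stage, with 1 residual degree of freedom. DESeq2 1.42.0 was the alternative test. The pipeline was tested on simulated data.

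Counting intervals were exact Clopper-Pearson 95% binomial intervals, scaled by library size. Reads carried no molecular identifiers, so intervals and the floor of 3 reads reflect counting error alone. Lengths are unions of exons, and lengths, 3′ UTRs (1 transcript per gene) and positions came from GENCODE on GRCm38, the assembly of mm10. All promoter and miRNA sequences came from RefSeq tables. The values given in every library are those of the type IV collagens, the main chains of the other groups, the members called in both KO libraries, and the 5 highest and 5 lowest members between WT stages and between KO libraries among those with at least 50 reads. Col19a1, Col6a1, Col6a2, Col9a2 and some genes of the related lists were named after their values were seen. The members, lists and rules were chosen with earlier results of these data known. Of the members, 1 is included in the counts and medians, but its own values are not reported here. No set test was made.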

Additional observations from a re-analysis of the deposited data

How the results depend on the processing

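Each WT stage had 1 library and the KO libraries differed in embryo stage, so no comparison with WT has a replicate check on the WT side, and genes under about 50 reads have wide counting intervals. The median differences of the members moved by less than the spread between KO libraries with DESeq2 size factors, with plain CPM, without the filter, with a minimum of 50 reads and with a prior count of 0.5, although that of KO2, -0.06, became 0.01 with no filter. With plain CPM, which has no TMM scaling, 1 member, in place of 3, was below E8.5 WT in both KO libraries. With a minimum of 50 reads, 0 members were lower in E8.5 WT than in E7.5 WT in place of 1, and 1 was higher in KO2 than in KO1 in place of 2. A threshold of 2 left 0 members higher and 0 lower in both KO libraries, 6 higher and 0 lower in E8.5 WT than in E7.5 WT, and 0 higher and 1 lower in KO2 than in KO1. Leaving out KO1 or KO2, the members higher than E8.5 WT numbered 5 to 6, in place of 3, and those lower 4 to 11, the 11 (22% of the members, beside 5.91% of all genes) being without KO1. With the DESeq2 Wald test, 2 members passed an adjusted p of 0.05 against E7.5 WT in place of 0. The causes of these differences were not tested, beyond the fewer libraries or genes that a setting leaves. With the longest transcript as the length, 36 of 56 chain ratios left their counting interval. The order of libraries within a pair cannot change with the length used, but Lamb1 then exceeded Lamc1 per length (1.09 in E8.5 WT, against 0.69 with exon unions). In E8.5 WT, Col1a1 over Col1a2 was then 1.83, against 3.84, and Col5a1 over Col5a2 was 2.26, against 3.24. No paired analysis was possible because the WT groups hold 1 library each and share only 1 replicate number with the KO group.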
